A study of Homo sapiens with 6 samples.

Results

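The genes described here build and start the DNA replication fork: the 48 genes of the origin recognition complex, CDC45 and GINS, the replicative polymerases, the sliding clamp and its loader, the single-strand binding protein RPA, fork protection and histone deposition factors, the DDK kinase, cyclin E, CDC25A and the E2F transcription factors. They were taken by gene symbol from the deposited table of 60612 genes, each symbol matched 1 row, and all 48 were among the 19279 genes that passed the filter on low counts. RNA sequencing was done on U251 cells, an established human glioma line labelled wild type, in 2 groups of 3 libraries. The treated group received 6-shogaol, a thiol-reactive ginger constituent, for 24 h at a dose labelled 60 with the unit written "μm". The control group was sampled at 24 h without the compound, and both groups grew in DMEM with fetal bovine serum. The labels state neither a vehicle for the controls nor separate cultures for the replicates, so the p-values speak only of how these 6 libraries vary, and that variation could be technical.

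Replication is prepared in G1, when ORC marks origins and the MCM helicase is loaded there, and starts when cyclin E with CDK2 and the DDK kinase CDC7-DBF4 let CDC45 and GINS join MCM. Polymerase alpha-primase then lays primers, polymerase epsilon extends the leading strand and polymerase delta the lagging strand, both held by the PCNA clamp that RFC loads. Most of these genes are known targets of E2F factors, which the retinoblastoma protein family holds inactive until cyclin-dependent kinases release them.

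Libraries held 43516840 to 55225898 counts with 6-shogaol and 52132767 to 60018999 in controls. The first principal component (28.0% of the variance) had the groups on opposite sides, and on the second (20.6%) 6-shogaol replicate 1 lay at -61.8, against -22.6 to 33.9 for the other libraries. Of 9 glial and glioma markers 7 had a mean of at least 1 FPKM (fragments scaled by gene length and library size). The summed level of the list was 1187 to 1841 FPKM with 6-shogaol and 1406 to 1432 FPKM in controls. VIM made up most of that sum, SOX2 was also abundant, and OLIG2 and S100B were near 0. Of the glial list 3 genes fell with 6-shogaol: GFAP (log2 fold change -1.62, edgeR adjusted p = 0.00655), FABP7 (-1.41, 0.0385) and NES (-0.42, 0.0484). GFAP stood at 0.664 FPKM with 6-shogaol and 2.03 FPKM in controls, FABP7 at 0.613 FPKM with 6-shogaol and 1.63 FPKM in controls, and NES at 88.4 FPKM with 6-shogaol and 116 FPKM in controls. GFAP was called in 6 of the 6 fits without 1 library, NES in 1 and FABP7 in 0. Of the other marker lists, 2 of 4 neuronal (SYT1, TUBB3), 1 of 4 immune (CD68), 2 of 4 epithelial (KRT8, KRT18) and 0 of 3 endothelial genes reached a mean of 1 FPKM. The endothelial gene CDH5 fell to 0.0949 FPKM with 6-shogaol, against 0.322 FPKM in controls (log2 fold change -1.77, edgeR adjusted p = 0.0192), and was called in 2 of the 6 fits without 1 library. The summed level of the immune list was 6.27 to 11.1 FPKM with 6-shogaol and 4.91 to 5.73 FPKM in controls, with the leukocyte genes PTPRC and CD3E at or near 0 in all 6 libraries. The part of these markers in the results was not tested.

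With 6-shogaol, 12 of the 48 genes rose and 0 fell by the quasi-likelihood test of edgeR, at a p under 0.05 after Benjamini-Hochberg adjustment over all genes tested. Among all genes tested, 1.67% rose and 1.71% fell by the same rule. The 12 were E2F1, E2F7, E2F8, CCNE1, CCNE2, POLA1, PRIM1, PCNA, RFC4, RPA2, CLSPN and WDHD1, with folds of 1.28 to 1.89. At an unadjusted p under 0.05, 26 of the 48 genes were higher, against 10.4% of all genes tested, and 1, ORC4, was lower, against 9.95%. The median log2 fold change of the 48 genes was 0.25, against 0.00 for all genes tested, and 44 of the 48 values were above 0. All 3 treated libraries lay above all 3 controls for 28 of the 48 genes, against 14.0% of all genes tested, and below all controls for 2 genes, against 13.9%. The highest of the 6 libraries was a treated one for 45 genes, the exceptions being ORC4, ORC5 and E2F3. The same count was not made over all genes tested. Without 6-shogaol replicate 1, which stood apart on the second component, 12 genes rose: 11 of the same ones, with GINS1 in place of POLA1. Leaving out control replicates 1, 2 and 3 left 4, 1 and 3 calls, and leaving out 6-shogaol replicates 2 and 3 left 4 and 5, while the median log2 fold change stayed between 0.23 and 0.27. These are bulk libraries, in which more cells in S phase and more transcript per cell cannot be told apart.

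**Figure D1:**
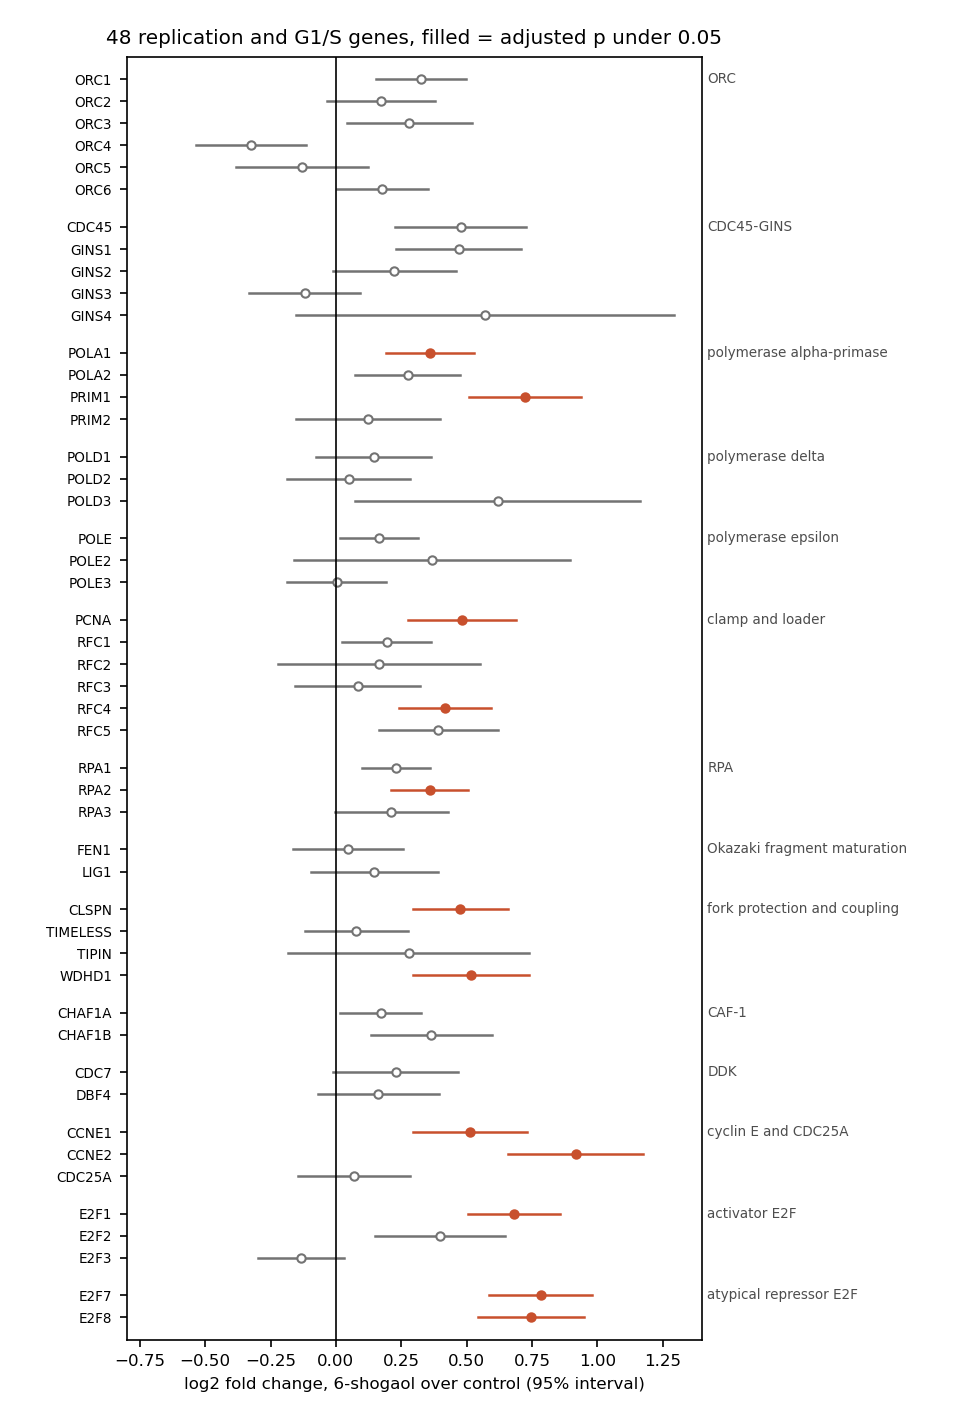
Log2 fold change of each of the 48 genes, 6-shogaol over control, with its 95% interval derived from the edgeR test (x axis), grouped by role (y axis). Filled red points passed the adjusted threshold; all 12 lie to the right of 0, and CCNE2 lies farthest right at 0.92.

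The E2F family held the 3 smallest adjusted p-values of the 48 genes. E2F1, an activator of replication genes (ENSG00000101412, chromosome 20, 33675477 to 33686385 in GRCh38), stood at 103, 101 and 103 CPM (counts scaled to library size, with TMM factors) in 6-shogaol replicates 1, 2 and 3, against 60.4, 62.1 and 69.1 CPM in control replicates 1, 2 and 3. Every treated library was far above every control, and E2F1 rose 1.603-fold (log2 fold change 0.68, SE 0.07, edgeR adjusted p = 0.00828). E2F7 and E2F8 are atypical E2Fs that repress E2F target genes and are themselves E2F targets. E2F7 (chromosome 12, 77021248 to 77065569) had 73.5, 83.1 and 79.6 CPM with 6-shogaol and 44.5, 43.5 and 49.3 CPM in controls, a rise of 1.72-fold (log2 fold change 0.78, SE 0.08, edgeR adjusted p = 0.00827). For E2F8 (chromosome 11, 19224063 to 19241620) the values were 31.4, 32.1 and 30.0 CPM with 6-shogaol and 17.97, 19.8 and 17.9 CPM in controls (log2 fold change 0.75, SE 0.09, edgeR adjusted p = 0.00961). Neither repressor's groups overlapped, and the activator and both repressors were higher together in all 3 treated libraries. E2F8 passed in all 6 fits without 1 library, and E2F1 and E2F7 in all but the fit without control replicate 2.

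The other activators did not pass. E2F2 had 37.4, 30.1 and 31.2 CPM with 6-shogaol and 23.8, 25.6 and 25.6 CPM in controls (log2 fold change 0.40, 95% interval 0.15 to 0.65, edgeR adjusted p = 0.0923). For E2F3 the treated libraries, at 43.3, 45.3 and 44.4 CPM, lay below the controls at 46.4, 50.02 and 49.5 CPM (log2 fold change -0.13, 95% interval -0.30 to 0.03, edgeR adjusted p = 0.335). Per length, E2F1 was the most abundant of the 5 E2F genes listed here, at 32.5 ± 1.02 FPKM with 6-shogaol and 19.96 ± 1.59 FPKM in controls (SD, n = 3). E2F2 was the lowest of the activators, at 5.14 ± 0.708 FPKM with 6-shogaol and 3.84 ± 0.177 FPKM in controls.

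Promoters from RefSeq (GRCh38.p14, from 250 bases before to 50 after the annotated start) were found for 42 of the 48 genes. They were searched on both strands for 4 words of 8 letters that fit the E2F consensus, TTTGGCGC, TTTCCCGC, TTTCGCGC and TTTGCCGC. GINS4, POLD3, RPA2, RPA3, CCNE2 and E2F8 had no entry among the promoters searched. RPA2, CCNE2 and E2F8 rose and are therefore absent from the shares below. No pair of words found overlapped. At least 1 word was present in 16 of the 42 promoters (38.1%), against 5.18% of 11713 promoters of tested genes and 3.33% of all 27305 promoters searched. Of 17 words found, 14 began within 60 bases before the start. The word TTTGAA of the CHR element, known from genes of mitosis, was found on either strand in 2 of the 42 promoters (4.76%), against 10.1% of the promoters of tested genes. An E2F word was present in 4 of the 9 promoters of genes that rose (44.4%) and in 12 of the 33 promoters of genes that were not called (36.4%). Those 4 promoters are shown because they belong to genes that rose and hold a word. Each is written 5′ to 3′ on the gene's strand with the E2F words, or their reverse complements, in capitals.
E2F1 (chr20:33686386-33686535, minus strand, bases -150 to -1): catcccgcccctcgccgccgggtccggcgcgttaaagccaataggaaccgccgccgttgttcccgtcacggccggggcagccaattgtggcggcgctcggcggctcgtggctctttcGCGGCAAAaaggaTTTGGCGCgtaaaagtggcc
PCNA (chr20:5126623-5126772, minus strand, bases -150 to -1): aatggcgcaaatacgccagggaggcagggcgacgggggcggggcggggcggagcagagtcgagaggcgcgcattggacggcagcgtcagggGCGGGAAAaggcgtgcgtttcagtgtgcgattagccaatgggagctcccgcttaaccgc
CLSPN (chr1:35769976-35770128, minus strand, bases -150 to 3): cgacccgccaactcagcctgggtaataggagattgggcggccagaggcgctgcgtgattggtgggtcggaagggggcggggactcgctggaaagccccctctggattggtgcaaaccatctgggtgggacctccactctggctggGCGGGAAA
POLA1 (chrX:24693768-24693917, plus strand, bases -150 to -1): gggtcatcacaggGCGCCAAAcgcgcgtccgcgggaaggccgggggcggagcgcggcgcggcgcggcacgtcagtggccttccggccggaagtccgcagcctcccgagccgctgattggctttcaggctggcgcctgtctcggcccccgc
The E2F1 promoter was the only one of the 42 with 2 words, which begin 33 and 20 bases before its start. E2F7 also rose, and none of the 4 words is in its window. The 150 bases before its start are shown for that contrast.
E2F7 (chr12:77065570-77065719, minus strand, bases -150 to -1): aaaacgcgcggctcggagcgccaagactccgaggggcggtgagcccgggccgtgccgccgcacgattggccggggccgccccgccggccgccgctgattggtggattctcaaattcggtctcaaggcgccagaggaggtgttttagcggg
A match describes letters and not binding, and binding to these promoters was not measured.

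Cyclin E, which drives entry into S phase with CDK2, rose in both forms. CCNE1 (chromosome 19, 29811991 to 29824312) had 27.0, 23.9 and 24.4 CPM with 6-shogaol and 17.99, 16.6 and 18.2 CPM in controls (log2 fold change 0.51, SE 0.09, edgeR adjusted p = 0.0364). The second form, CCNE2, had 20.9, 26.0 and 24.7 CPM with 6-shogaol and 12.4, 12.98 and 12.6 CPM in controls. Its rise of 1.89-fold was the largest of the 48 genes (log2 fold change 0.92, SE 0.11, edgeR adjusted p = 0.0102). The groups were well apart for either cyclin. CCNE2 shares 37.1% of its exon length with genes on the opposite strand, mainly INTS8, and the strand setting of the counting was not given. INTS8 itself stood at 40.04 ± 2.20 CPM with 6-shogaol and 34.6 ± 2.74 CPM in controls (SD, n = 3), with a log2 fold change of 0.21. CCNE1 was called in 1 of the 6 fits without 1 library, that without 6-shogaol replicate 1, and CCNE2 was called without any 1 treated library but not without any 1 control.

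CDC25A, the phosphatase that activates cyclin E-CDK2, had 19.7, 19.2 and 20.4 CPM with 6-shogaol and 17.6, 18.9 and 19.9 CPM in controls. The groups overlapped, and its log2 fold change was 0.07 (95% interval -0.14 to 0.28). The DDK kinase subunit CDC7 had a log2 fold change of 0.23 and its regulatory partner DBF4 of 0.16, and neither passed (edgeR adjusted p = 0.263 and 0.416). DBF4 was higher in every treated library, at 18.2, 19.7 and 18.1 CPM against 15.4, 17.8 and 16.9 CPM in controls, by a margin smaller than the range of the controls.

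**Figure D2:**
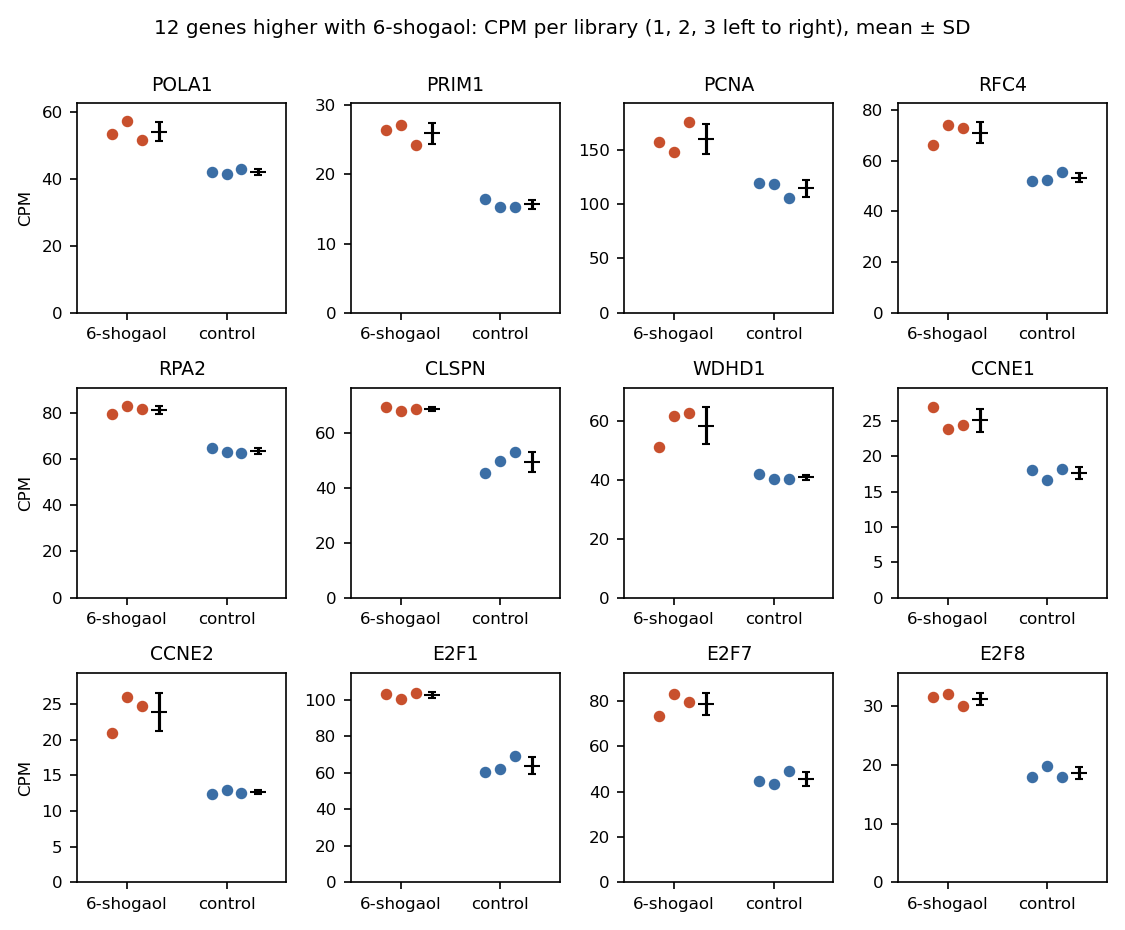
TMM-scaled CPM (y axis, from 0) of the 12 genes that rose, in each library of the 6-shogaol (red) and control (blue) groups; dashes with bars are means ± SD of 3 libraries. No treated library overlaps a control in any of the 12 panels.

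None of the 6 ORC genes passed, and they did not move one way. ORC1, the subunit made in late G1 that is itself an E2F target, had 35.4, 34.1 and 34.3 CPM with 6-shogaol and 28.2, 26.5 and 28.1 CPM in controls (log2 fold change 0.33, SE 0.07, edgeR adjusted p = 0.0642). ORC4 had the lowest log2 fold change of all 48 genes (-0.32, SE 0.09, edgeR adjusted p = 0.102). It stood at 22.1, 23.0 and 23.9 CPM with 6-shogaol and 31.1, 28.3 and 27.0 CPM in controls. For both genes the 3 treated libraries lay on 1 side of the controls. Treated libraries also lay above all controls for ORC3 (log2 fold change 0.28) and ORC6 (0.18). The groups overlapped for ORC2 (0.17) and ORC5 (-0.13). Per length, ORC6 was the highest of the complex at 13.8 ± 0.530 FPKM with 6-shogaol and 12.02 ± 0.608 FPKM in controls, and ORC4 the lowest at 2.19 ± 0.0683 FPKM with 6-shogaol and 2.70 ± 0.184 FPKM in controls (SD, n = 3). By CPM the lowest was ORC5, with means of 19.1 CPM with 6-shogaol and 20.9 CPM in controls. ORC4 had means of 23.0 CPM with 6-shogaol and 28.8 CPM in controls.

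CDC45 and GINS complete the active helicase with MCM, and none of their 5 genes passed. CDC45 had 41.2, 39.7 and 39.6 CPM with 6-shogaol and 29.7, 24.9 and 32.02 CPM in controls (log2 fold change 0.48, SE 0.11, edgeR adjusted p = 0.0615). GINS1 had 32.9, 40.4 and 36.8 CPM with 6-shogaol and 26.0, 28.3 and 25.3 CPM in controls (log2 fold change 0.47, SE 0.10, edgeR adjusted p = 0.0565). Neither gene's groups overlapped, and both were called by DESeq2 (adjusted p = 0.00761 and 0.00713). The other GINS subunits gave 0.22 for GINS2 and -0.12 for GINS3, with overlapping groups. GINS4 had 61.5, 69.5 and 69.0 CPM with 6-shogaol and 23.2, 56.5 and 55.0 CPM in controls, so that control replicate 1 lay far below the other controls. Its log2 fold change of 0.57 had the widest 95% interval of the 48 genes, -0.15 to 1.29, and was 0.26 without that library. Another gene, AC009630.2, overlaps 21.2% of the exon length of GINS4, with a mean of 16 counts per library against 2962 for GINS4. GINS3 shares 10.9% of its exon length with AC009118.2 on the opposite strand, at a mean of 48 counts per library against 1412 for GINS3.

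Polymerase alpha-primase makes the RNA-DNA primers of both strands, and 2 of its 4 subunits rose. The catalytic primase subunit PRIM1 (chromosome 12, 56731296 to 56752374) had 26.4, 27.1 and 24.2 CPM with 6-shogaol and 16.5, 15.3 and 15.3 CPM in controls (log2 fold change 0.72, SE 0.09, edgeR adjusted p = 0.0127). It shares 6.77% of its exon length with NACA, on the same strand, and HSD17B6, on the opposite strand, and neither was called. NACA stood at 224 CPM with 6-shogaol and 227 CPM in controls (log2 fold change -0.02). HSD17B6 stood at 1.18 CPM with 6-shogaol and 1.87 CPM in controls (-0.67). POLA1, the polymerase subunit (chromosome X, 24693909 to 24996986), had 53.2, 57.1 and 51.7 CPM with 6-shogaol and 41.9, 41.3 and 43.0 CPM in controls (log2 fold change 0.36, SE 0.07, edgeR adjusted p = 0.0475). Treated libraries lay above all controls for both. PRIM1 was called in 3 of the 6 fits without 1 library, failing when control replicate 2, control replicate 3 or 6-shogaol replicate 2 was left out, and POLA1 in 0 of the 6. POLA2, the accessory subunit, was higher in every treated library (log2 fold change 0.27, edgeR adjusted p = 0.131). Another gene, AP000944.2, overlaps 35.1% of the exon length of POLA2, with a mean of 37 counts per library against 1890 for POLA2. PRIM2, the large primase subunit that partners PRIM1 one to one, had 17.7, 23.1 and 21.6 CPM with 6-shogaol and 18.8, 18.9 and 19.7 CPM in controls (log2 fold change 0.12, 95% interval -0.15 to 0.40). Per length, PRIM1 stood at 7.73 ± 0.459 FPKM with 6-shogaol and 4.61 ± 0.178 FPKM in controls, and PRIM2 at 3.13 ± 0.367 FPKM with 6-shogaol and 2.83 ± 0.0930 FPKM in controls (SD, n = 3).

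No subunit of polymerase delta or epsilon passed. The catalytic subunits POLD1 and POLE had log2 fold changes of 0.14 (95% interval -0.08 to 0.36) and 0.16 (0.02 to 0.31). POLE was higher in every treated library, at 112, 108 and 117 CPM against 99.3, 98.8 and 102 CPM in controls, while the POLD1 groups overlapped. POLD3, a delta subunit that contacts PCNA, had 55.1, 59.3 and 36.1 CPM with 6-shogaol and 36.6, 37.4 and 24.1 CPM in controls. Replicate 3 was the lowest of its group in both arms, and the log2 fold change of 0.62 had a 95% interval of 0.07 to 1.16 (edgeR adjusted p = 0.195). POLD2 (0.05) and the histone-fold epsilon subunit POLE3 (0.00, 95% interval -0.19 to 0.19) had values near 0. POLE2, the least abundant of the 48 genes per length at 1.78 ± 0.284 FPKM with 6-shogaol and 1.36 ± 0.304 FPKM in controls, had a log2 fold change of 0.37 (95% interval -0.16 to 0.89).

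PCNA, the ring that tethers polymerases to DNA, and RFC4, a subunit of its loader, rose. PCNA (chromosome 20, 5114953 to 5126626) had 156, 148 and 175 CPM with 6-shogaol and 119, 118 and 106 CPM in controls (log2 fold change 0.48, SE 0.09, edgeR adjusted p = 0.037). It was the most abundant of the 48 genes per length, at 97.1 ± 8.87 FPKM with 6-shogaol and 68.4 ± 3.97 FPKM in controls (SD, n = 3). RFC4 (chromosome 3, 186789880 to 186807058) had 66.3, 74.2 and 73.1 CPM with 6-shogaol and 52.0, 52.5 and 55.5 CPM in controls (log2 fold change 0.42, SE 0.07, edgeR adjusted p = 0.0358). The groups were apart for both, and each was called in 1 of the 6 fits without 1 library. Among the other loader subunits, RFC5 had a log2 fold change of 0.39 (edgeR adjusted p = 0.0793) and RFC1, the large subunit, of 0.19 (0.191), both with every treated library above the controls. RFC2 (0.17) and RFC3 (0.08) had overlapping groups, RFC2 with 93.4, 70.3 and 63.7 CPM with 6-shogaol and 75.8, 57.5 and 69.5 CPM in controls.

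All 3 subunits of RPA, which coats single-stranded DNA at the fork, were higher in every treated library, and RPA2 passed. RPA2 (chromosome 1, 27891524 to 27914575) had 79.5, 82.8 and 81.8 CPM with 6-shogaol and 64.9, 62.8 and 62.7 CPM in controls (log2 fold change 0.36, SE 0.06, edgeR adjusted p = 0.0338). RPA1, the large DNA-binding subunit and the most abundant of the 48 by CPM, had 320.1, 315 and 315 CPM with 6-shogaol and 272, 262 and 277 CPM in controls (log2 fold change 0.23, SE 0.06, edgeR adjusted p = 0.0754). RPA3, the small subunit, had 30.1, 32.1 and 34.8 CPM with 6-shogaol and 28.6, 29.2 and 26.0 CPM in controls (log2 fold change 0.21, edgeR adjusted p = 0.253). RPA2 was called in 1 of the 6 fits without 1 library.

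The enzymes that finish Okazaki fragments had small fold changes, with overlapping groups. FEN1, the flap nuclease, had 128, 111 and 107 CPM with 6-shogaol and 107, 109 and 119 CPM in controls (log2 fold change 0.05, 95% interval -0.16 to 0.26). LIG1, the ligase that seals the fragments, had 107, 91.9 and 95.2 CPM with 6-shogaol and 80.6, 85.6 and 99.7 CPM in controls (log2 fold change 0.15, 95% interval -0.10 to 0.39). For both, 6-shogaol replicate 1 was the highest library, and without it the log2 fold change of FEN1 was -0.03.

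**Figure D3:**
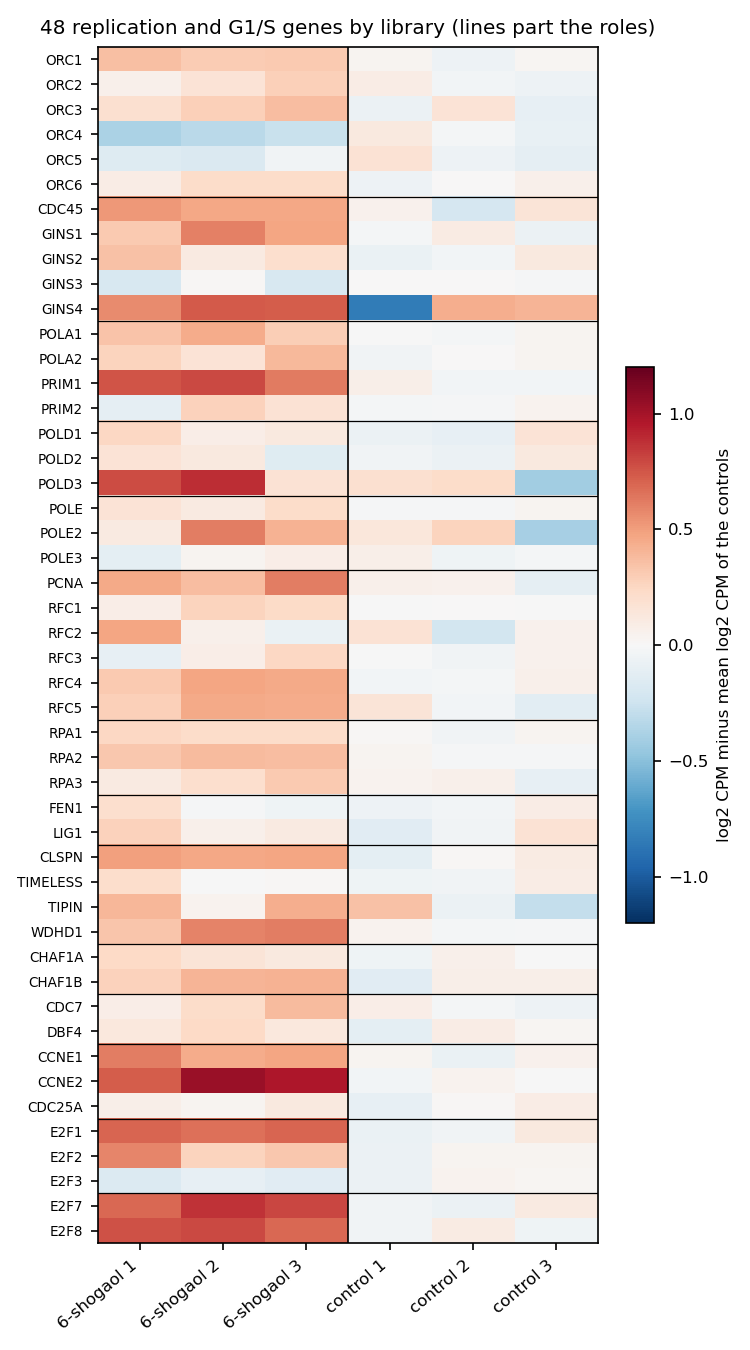
Log2 CPM of each gene (rows, by role) in each library (columns), minus the mean log2 CPM of the 3 controls; red is higher and blue lower than the controls. E2F7, E2F8, E2F1, PRIM1 and CCNE2 are red in all 3 treated libraries, ORC4 is blue in all 3, and GINS4 is dark blue in control replicate 1 alone.

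Among fork protection and coupling factors CLSPN and WDHD1 rose. CLSPN encodes claspin, which links the fork to the ATR-CHK1 checkpoint (chromosome 1, 35720218 to 35769978). It had 69.6, 68.0 and 68.7 CPM with 6-shogaol and 45.4, 49.9 and 52.9 CPM in controls (log2 fold change 0.48, SE 0.08, edgeR adjusted p = 0.0279). WDHD1 (AND-1), which ties polymerase alpha to the helicase (chromosome 14, 54938949 to 55027105), had 51.3, 61.6 and 62.6 CPM with 6-shogaol and 41.9, 40.2 and 40.3 CPM in controls (log2 fold change 0.52, SE 0.09, edgeR adjusted p = 0.037). Both had groups that did not overlap, and both were called in 1 of the 6 fits without 1 library, that without 6-shogaol replicate 1. The fork protection pair TIMELESS and TIPIN had log2 fold changes of 0.08 (95% interval -0.12 to 0.28) and 0.28 (-0.18 to 0.74) with overlapping groups. TIPIN shares 21% of its exon length with RPL9P25 on the same strand, at a mean of 130 counts per library against 550 for TIPIN. The part of RPL9P25 in the TIPIN counts was not tested.

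CAF-1 deposits histones on new DNA through CHAF1A, CHAF1B and the shared histone chaperone RBBP4. CHAF1A had 134, 127 and 124 CPM with 6-shogaol and 109.95, 119 and 113 CPM in controls (log2 fold change 0.17, edgeR adjusted p = 0.206). CHAF1B had 24.8, 27.2 and 27.4 CPM with 6-shogaol and 18.6, 21.6 and 21.5 CPM in controls (log2 fold change 0.36, edgeR adjusted p = 0.097). Treated libraries lay above all controls for both. RBBP4, which also serves in other chromatin complexes, stood at 166, 153 and 139 CPM with 6-shogaol and 229, 223 and 189.6 CPM in controls, with every treated library below them (log2 fold change -0.49, SE 0.10, edgeR adjusted p = 0.0507). It was singled out after its values were seen.

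Of 25 further replisome and replication-coupled genes, 17 had a log2 fold change above 0 and 8 below, with a median of 0.15. At an unadjusted edgeR p under 0.05, 8 were higher and 6 lower, against 10.4% and 9.95% of all genes tested. At an edgeR adjusted p under 0.05, 1 rose and 0 fell, against 1.67% and 1.71% of all genes tested. The gene that rose was DNA2, a nuclease of long flaps, at 26.7, 26.7 and 28.7 CPM with 6-shogaol and 20.95, 20.15 and 20.85 CPM in controls (log2 fold change 0.41, SE 0.08, edgeR adjusted p = 0.0466). Of 9 MCM and licensing genes 3 rose and 0 fell, with a median of 0.33: CDT1, the MCM loading factor (log2 fold change 0.50), MCM6 (0.39) and MCM3 (0.37). Of 30 regulators of G1 and S-phase entry 26 were tested, with 16 log2 fold changes above 0, 10 below and a median of 0.10. Of these genes 1 rose and 0 fell. The one that rose was RBL1, the pocket protein p107 that binds repressive E2Fs, at 56.2, 64.4 and 61.9 CPM with 6-shogaol and 41.0, 41.9 and 43.9 CPM in controls (log2 fold change 0.52, SE 0.08, edgeR adjusted p = 0.0222). MCM3 was called in 0 of the 6 fits without 1 library, and DNA2, MCM6, CDT1 and RBL1 in 1 of them. Chosen after their values were seen, CDKN1A, CDK2 and CCNA2 were not called. CDKN1A, the inhibitor p21 of cyclin E-CDK2, had 253, 257 and 247 CPM with 6-shogaol and 153, 163 and 88.5 CPM in controls, with every treated library above the controls and control replicate 3 the lowest (log2 fold change 0.91, SE 0.21, edgeR adjusted p = 0.0689). DESeq2 called CDKN1A (adjusted p = 0.000126), and so did 1 of the 6 edgeR fits without 1 library, that without control replicate 3. CDK2, the partner of cyclin E, had a log2 fold change of 0.29 (95% interval -0.04 to 0.61), and CCNA2, the cyclin of S and G2 phases, of 0.01 (-0.14 to 0.17). CDKN2A and CDKN2B, inhibitors of CDK4 and CDK6, had 0 counts in all 6 libraries, which allows up to 0.04998 to 0.0689 CPM depending on the library (3 counts, covering counting error only), and were not tested. CDKN2C and CCND2 were also too low to test.

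Per length, in controls, 8 genes had a mean above 20 FPKM, 35 had 3 to 20 FPKM and 5 had under 3 FPKM, with a median of 6.35 FPKM. Within complexes that hold their subunits in equal numbers the FPKM were unequal. RPA1, RPA2 and RPA3 stood at 49.2, 35.0 and 8.52 FPKM with 6-shogaol and at 41.4, 26.9 and 7.24 FPKM in controls. Their annotated exon lengths were 5492, 2019 and 3232 bases. By CPM the order within RPA was the same, at 317, 81.3 and 32.3 CPM with 6-shogaol and 270, 63.5 and 27.9 CPM in controls. Polymerase epsilon had POLE3 at 22.2 ± 1.28 FPKM with 6-shogaol and 21.9 ± 0.941 FPKM in controls, above POLE at 5.68 ± 0.276 FPKM with 6-shogaol and 5.00 ± 0.127 FPKM in controls (SD, n = 3). By CPM the order was reversed, with POLE3 at 68.0 and POLE at 112 CPM with 6-shogaol. In controls POLE3 stood at 67.9 and POLE at 100 CPM. The annotated exon length was 2604 bases for POLE3 and 16609 bases for POLE. The lengths behind the FPKM are not given, and their part in these differences between subunits was not tested. POLE3 also belongs to a chromatin remodelling complex outside the replisome.

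**Figure D4:**
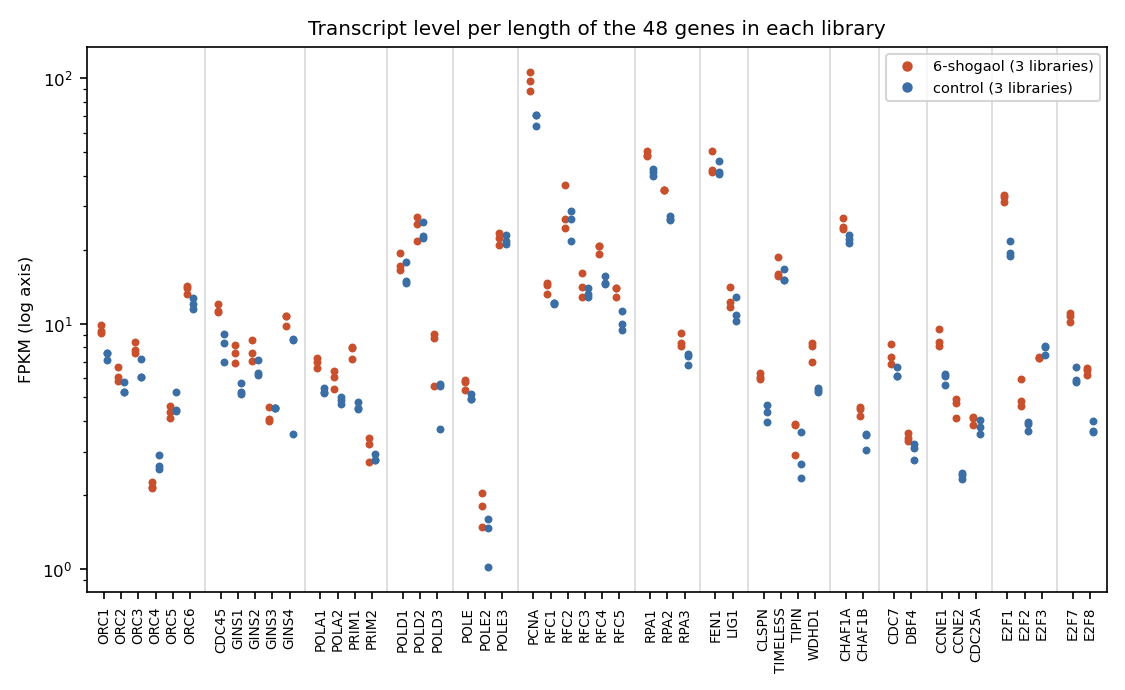
FPKM (log axis) of each of the 48 genes in the 3 libraries of the 6-shogaol (red, left) and control (blue, right) groups, by role. PCNA, at 97.1 FPKM with 6-shogaol and 68.4 FPKM in controls on average, is the highest, and POLE2, at 1.78 FPKM with 6-shogaol and 1.36 FPKM in controls, the lowest.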

How the data were processed

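Aligner, counter, annotation and strand setting are not given in the sources used here. RNA, per the labels, was extracted with Trizol and made into libraries with a SMARTER mRNA-Seq kit. The authors deposited raw counts per gene for each library, and FPKM scaled by gene length and library size. The gene lengths they used are not given, and comparisons of FPKM between genes depend on them. The submitters' processing notes name mouse genome builds, but the deposited tables hold human Ensembl gene IDs. Coordinates are printed as deposited, and all 48 genes overlapped the gene of the same ID and strand in GENCODE 29 (GRCh38), 12 of them with the same start and end.

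Counts were tested with edgeR 4.0.16 in R 4.3.3 (TMM scaling, filterByExpr with a minimum count of 10, quasi-likelihood test, Benjamini-Hochberg threshold of 0.05 over 19279 genes), on all 6 libraries without covariates. CPM are TMM-scaled. Each SE was derived from the log2 fold change and the F statistic of the quasi-likelihood test, and each 95% interval from that SE with a t quantile. The tests were checked on simulated data with planted changes of 1.5-fold and more. Smaller changes, such as the smallest called fold of 1.28, were not covered by that check. DESeq2 1.42.0, limma 3.58.1 on log2(FPKM + 1), other scalings and filters, a replicate block and leaving out each library were tried as alternatives. With 3 libraries per group, an exact permutation test of 1 gene cannot go below a two-sided p of 0.1.

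The 48 genes, the other lists and the promoter words were chosen with earlier results of these data known. All 48 genes are accounted for: those that passed the threshold have values in every library, and genes of the other lists, cell type markers included, are named where they passed; any others named were chosen after their values were seen. The level of 1 marker gene is not reported here.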

Additional observations from a re-analysis of the deposited data

How the results depend on the processing

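All 12 calls were kept with RLE and upper-quartile scaling, robust moderation, a minimum of 1 CPM in 3 libraries, and with limma at a pseudocount of 1 or 0.1 FPKM, and 0 of the 48 genes fell in any fit. DESeq2 called 18 of the 48 genes higher, adding ORC1, CDC45, GINS1, POLD3, RFC5 and E2F2, with 769 higher and 792 lower among all genes. Without a filter on low counts 6 of the 48 were called (183 higher and 195 lower among all genes), and with limma and no filter 7 (160 higher and 119 lower). Leaving out 1 library at a time gave 1 to 12 calls among the 48, with 44 to 480 genes higher and 54 to 532 lower among all genes. The low end came without control replicate 2 and the high end without 6-shogaol replicate 1. The log2 fold change kept its sign in every fit for 43 of the 48 genes. POLE3 changed sign with RLE scaling (-0.000514), upper-quartile scaling (-0.00919), DESeq2 (-0.00387), no filter (-0.000487) and the 1 CPM minimum (-0.00323). With 1 library left out the value ran from -0.0372 to 0.0591 for POLE3, -0.00949 to 0.14 for POLD2, -0.0122 to 0.28 for RFC2, -0.00836 to 0.17 for RFC3 and -0.0349 to 0.10 for FEN1. The cause of these shifts was not tested. Deviations of same-numbered libraries from their group means had correlations of -0.03, 0.06 and -0.04 over all genes tested. Libraries of different numbers gave -0.06 to 0.09. The labels state no pairing, and these values cannot settle whether the replicate numbers pair the samples. With the replicate number as a block, 0 of the 48 genes passed, with 3 genes higher and 0 lower among all genes. At an unadjusted p under 0.05 the block fit had 23 of the 48 higher and 1 lower, with 1645 higher and 1645 lower among all genes.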
